A study of Mus musculus with 6 samples.

Results

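NADPH oxidases are membrane enzymes that pass electrons from NADPH to oxygen. The genes described here are those of 5 subunits of the phagocyte oxidase (Cybb, Cyba, Ncf1, Ncf4 and Rac2) and of the vascular enzyme Nox4. They were chosen by name, and all 6 were among the 14298 genes listed for aortic arches of atherosclerosis-prone mice. Every animal lacked apolipoprotein E (ApoE-/-), carried floxed Rbpj alleles (RBPJflox/flox) on a C57/BL6 background, was adult, received tamoxifen for 1 week at 8 weeks of age and then a high-fat diet for 6 weeks. The 3 knockout libraries, named here S595, S598 and S599 after the column headings, were made from mice with an added Cdh5-CreERT, a recombinase that tamoxifen activates and that the promoter of an endothelial cadherin gene drives. The 3 control libraries S591, S592 and S594 came from mice without the recombinase, so its presence and the loss of Rbpj cannot be told apart. Whole arches were used, so the values mix endothelium with smooth muscle, fibroblasts and leukocytes. Levels are normalised CPM (read counts divided by a scaled library size), and means are printed ± SD over the 3 libraries of a group (n = 3).

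In the phagocyte enzyme, the Cybb product (NOX2) is the catalytic subunit and is held in the membrane together with the Cyba product. The proteins of Ncf1 and Ncf4 wait in the cytosol and join the membrane core on activation, together with the GTPase encoded by Rac2, and the complex then releases superoxide. Nox4 also pairs with the Cyba product, needs none of the cytosolic proteins, releases mainly hydrogen peroxide, and is known as the oxidase of smooth muscle and endothelium.

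The 5 phagocyte subunits stood lower and Nox4 stood higher in the knockout arches, each by a log2 fold change between 0.60 and 1.19 in size or, as differences of means, between 1.49-fold and 2.48-fold. No member passed limma's test over all genes. The adjusted p ran from 0.112 to 0.190, and 3 genes (0.0210%) passed among all 14298. At an unadjusted p of 0.05, all 5 phagocyte subunits were on the lower side, where 12.0% of all genes were, and Nox4 was on the higher side, where 8.04% were. Every knockout library lay below every control library for Cyba, Ncf1 and Rac2 (14.2% of all genes), and every knockout library lay above every control library for Nox4 (11.3% of all genes). Cybb and Ncf4 overlapped between the groups. The median log2 fold change was −1.01 over the 5 phagocyte subunits and −0.02 over all genes.

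The sequence before the start sites is shown for members that stood on the same side and for Nox4, which stood on the other. Promoter windows (250 bases before and 50 after the start) were found for 4 of the 6 members, from RefSeq with the build GRCm38.p6. The last 120 bases before the start are shown 5′ to 3′ on the gene's strand, for Cybb at chrX:9469325-9469444 on the minus strand, Cyba at chr8:122432941-122433060 on the minus strand, Ncf1 at chr5:134229626-134229745 on the minus strand and Nox4 at chr7:87246529-87246648 on the plus strand. Capitals mark matches to GAGGAA, the core that the myeloid factor PU.1 binds, or to GTGGGAA, the core that the Rbpj protein binds, on either strand.
Cybb: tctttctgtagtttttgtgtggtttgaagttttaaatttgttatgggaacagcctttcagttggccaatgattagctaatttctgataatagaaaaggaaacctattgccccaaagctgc
Cyba: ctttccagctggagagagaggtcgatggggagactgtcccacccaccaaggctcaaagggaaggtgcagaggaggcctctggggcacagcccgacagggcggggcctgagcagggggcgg
Ncf1: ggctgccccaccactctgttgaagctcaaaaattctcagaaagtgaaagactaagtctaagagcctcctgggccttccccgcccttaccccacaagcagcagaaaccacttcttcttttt
Nox4: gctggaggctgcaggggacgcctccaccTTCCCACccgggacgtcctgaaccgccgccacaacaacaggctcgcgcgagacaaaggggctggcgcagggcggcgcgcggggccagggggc

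Of these stretches, Nox4 held a match, to the Rbpj core on the opposite strand, with its first base 92 bases before the start. GTGGGAA occurred on either strand in 6.38% of 32851 windows of 300 bases. Cybb held a match to the PU.1 core on the opposite strand just after the start, with its first base at position 10 counted from the start, in the 24 bases tgttttcatTTCCTCatcagaaga at chrX:9469301-9469324 on the minus strand. GAGGAA occurred in 28.3% of all windows. No stretch of bases matched both motifs, and the whole windows of Cyba and Ncf1 matched neither. These matches describe letters in the reference and are no evidence of binding. The RefSeq models of Cybb and Nox4 also include starts farther upstream than those used in the table.

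Among the membrane subunits, Cybb (ENSMUSG00000015340) read 140.5, 192.1 and 246.2 in control S591, S592 and S594. It read 81.0, 68.2 and 163.0 in knockout S595, S598 and S599. The overlap came from S599, which lay above control S591 while the other knockout libraries lay far below it. The means were 193 ± 52.9 and 104 ± 51.4, with a log2 fold change on the log2(value + 1) scale of −0.95 (standard error 0.33, 95% interval −1.73 to −0.18, limma adjusted p = 0.179). With 1 library left out, this log2 estimate ran from −1.33 without S599 (adjusted p = 0.0952) to −0.70 without S598 (adjusted p = 0.49).

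Its membrane partner Cyba (ENSMUSG00000006519) read 141.3, 207.3 and 215.6 in the controls and 107.2, 62.6 and 113.5 in the knockouts, in the same order of libraries. The groups did not overlap, and S598 was lowest as it was for Cybb. The means were 188 ± 40.7 and 94.4 ± 27.7, a 1.99-fold difference, with a log2 fold change of −1.01 (standard error 0.25, adjusted p = 0.121).

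**Figure D1:**
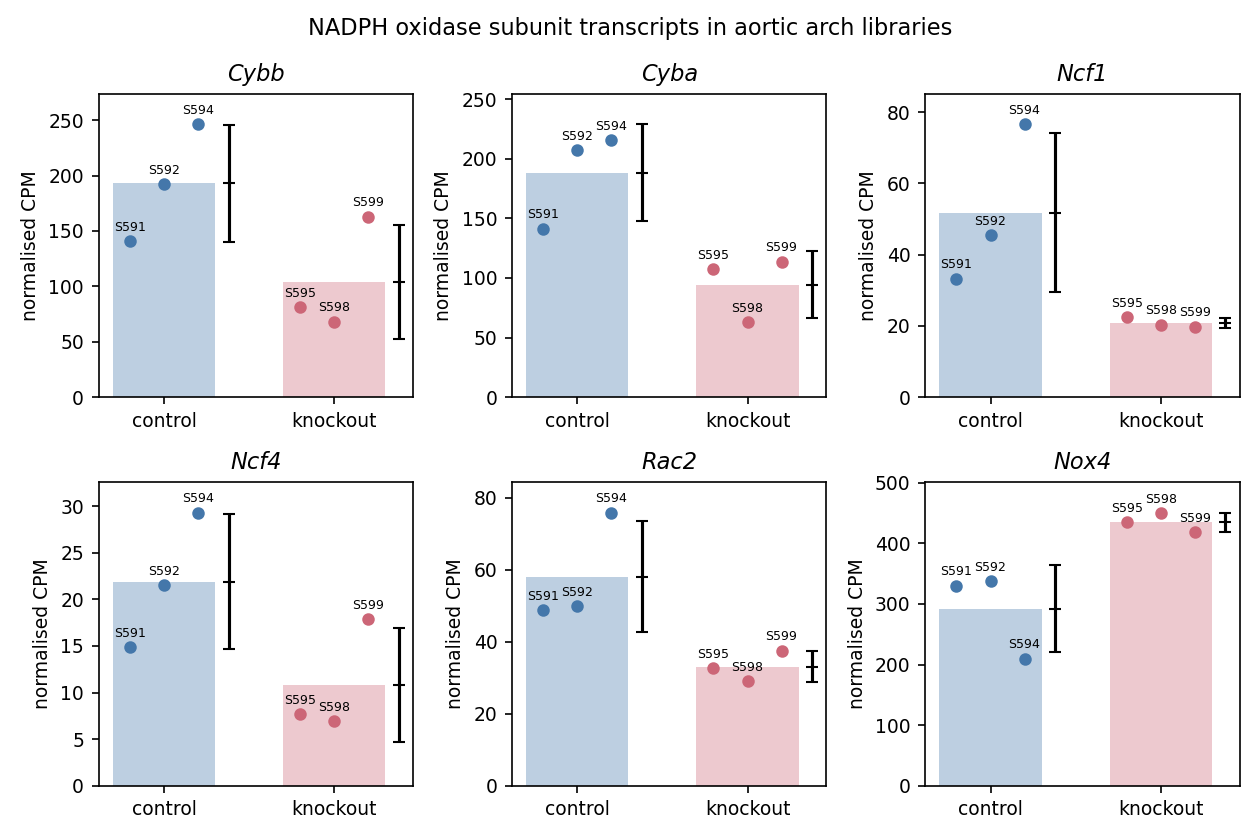
Normalised CPM (vertical axes) of the 6 members in the control and knockout groups, with 1 point per library, bars at the group means and error bars of 1 SD (n = 3). S599 reaches into the control range for Cybb and Ncf4, the knockout libraries of Ncf1 lie within 19.7 to 22.4, and all 3 knockout libraries lie above the controls for Nox4.

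Ncf1 (ENSMUSG00000015950), the organiser that brings the cytosolic proteins to the membrane, read 33.3, 45.4 and 76.6 in the controls and 22.4, 20.4 and 19.7 in the knockouts. The knockout libraries were close together and all lay below the controls, which spread widely. Its difference of means, 51.8 ± 22.3 against 20.9 ± 1.41 or 2.48-fold, was the widest of the 6 members (log2 fold change −1.19, standard error 0.27, adjusted p = 0.112). Annotated exons of Gtf2ird2 on the other strand share 408 bases, 11.1% of the exon sequence of Ncf1 in GENCODE M21, and the library kit does not mark strand.

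Ncf4 (ENSMUSG00000071715), a cytosolic subunit that binds a membrane phosphoinositide, read 14.8, 21.5 and 29.3 in the controls and 7.69, 6.89 and 17.9 in the knockouts. Like Cybb, it was above control S591 in S599. These values rest on 50 to 236 reads in each library, the fewest of any member. The log2 fold change was −1.02 (standard error 0.37, adjusted p = 0.190). With 1 library left out, it ran from −1.42 without S599 (adjusted p = 0.0952) to −0.79 without S598 (adjusted p = 0.509).

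Rac2 (ENSMUSG00000033220), the GTPase of blood cells that switches the complex on, read 48.8, 49.8 and 75.9 in the controls and 32.6, 29.1 and 37.5 in the knockouts. The groups did not overlap, and the difference of means, 58.2 ± 15.3 against 33.1 ± 4.24, was the narrowest of the phagocyte subunits at 1.76-fold (log2 fold change −0.77, standard error 0.19, adjusted p = 0.121).

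Nox4 (ENSMUSG00000030562) stood on the higher side. It read 330.0, 337.5 and 209.4 in the controls and 435.1, 450.1 and 418.5 in the knockouts. Control S594, the control highest in all 5 phagocyte subunits, was by far the lowest in Nox4. The means were 292 ± 71.9 and 435 ± 15.8, a 1.49-fold difference, with a log2 fold change of 0.60 (standard error 0.19, 95% interval 0.17 to 1.04, adjusted p = 0.153). Without S594 the log2 fold change was 0.38 (adjusted p = 0.347).

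Calls depended on the test and on 1 control library. DESeq2 on the recovered reads called Cyba, Ncf1 and Rac2 lower (adjusted p = 0.00887, 0.00198 and 0.0165), as it did 4.29% of all genes, and Nox4 higher (adjusted p = 0.0494), as it did 2.01% of all genes. The edgeR quasi-likelihood test called no member (adjusted p from 0.107 to 0.213), and nor did limma-voom (0.114 to 0.179). Without control S591, limma called Cyba (adjusted p = 0.0470) and Ncf1 (adjusted p = 0.0301) lower, as it did 3.29% of all genes.

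**Figure D2:**
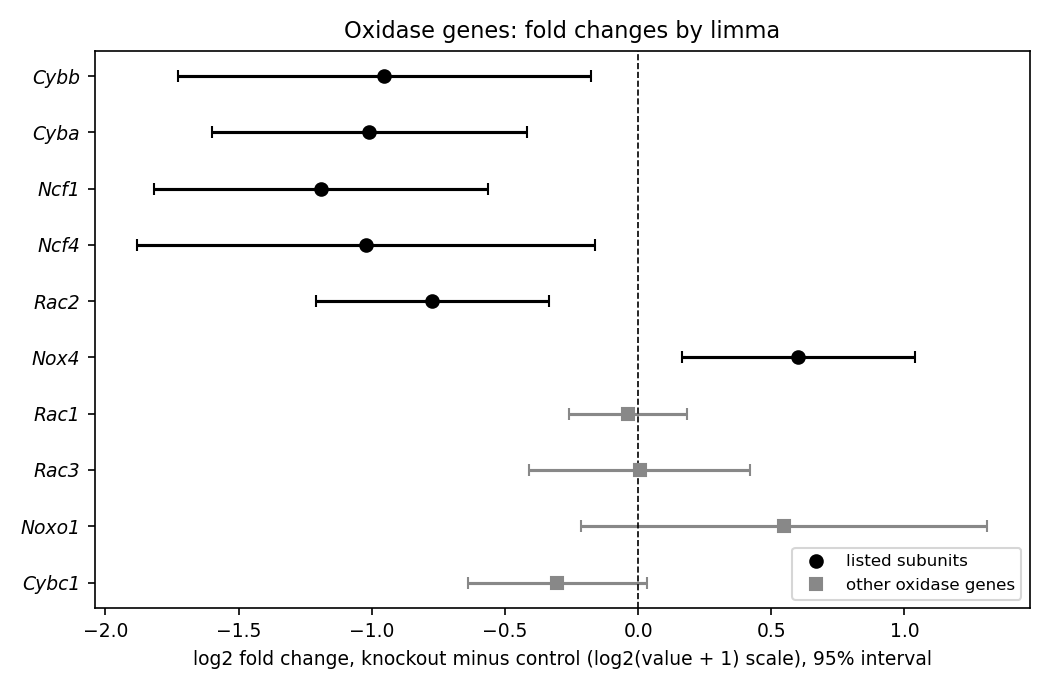
Log2 fold changes (horizontal axis, knockout minus control) with 95% intervals from limma on all 6 libraries, for the 6 members (circles) and 4 other oxidase genes (squares). The phagocyte subunits lie near −1, Rac1 and Rac3 lie near 0 and Nox4 lies above 0, and none passed over all genes.

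Of 11 other oxidase genes described, 4 were among the genes analysed. The other 7 (the enzymes Nox1, Nox3, Duox1 and Duox2, the maturation factors Duoxa1 and Duoxa2, and the activator Noxa1) were not found by symbol among the genes listed. Over the 4, limma, edgeR and DESeq2 called 0, with 0 at an unadjusted p of 0.05 by limma, and all 4 overlapped between the groups. Cybc1, a chaperone needed for the membrane core, read 44.1, 49.0 and 56.3 against 45.3, 33.8 and 41.8, with overlap (log2 fold change −0.30, adjusted p = 0.293).

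The widely expressed GTPase gene Rac1 read from 265.4 to 287.4 in the controls and from 261.7 to 285.6 in the knockouts (log2 fold change −0.04, adjusted p = 0.864), and the 95% interval of the difference ran from −0.26 to 0.19. Daglb exons on the other strand overlap 51.4% of its exon sequence. Rac3, the neural member of that family, stood at 5.36 ± 0.298 and 5.42 ± 0.816 (adjusted p = 0.987). Noxo1, the gene of another oxidase organiser, stood at 5.42 ± 2.13 and 8.36 ± 2.88 (adjusted p = 0.391), with 70.4% of its exon sequence overlapped by Tbl3 on the other strand.

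Levels of different genes were compared per kb of the longest coding transcript in GENCODE M21. In the control arches Cyba stood highest at 253 ± 54.7 CPM per kb, followed by Nox4 at 77.9 ± 19.2 and Cybb at 40.6 ± 11.1. Rac2 (19.1 ± 5.05), Ncf1 (18.0 ± 7.75) and Ncf4 (14.9 ± 4.94) followed, with differences between these neighbours smaller than their SDs. In the knockout arches the order was Cyba (127 ± 37.3), Nox4 (116 ± 4.22), Cybb (21.9 ± 10.8), Rac2 (10.9 ± 1.40), Ncf4 (7.38 ± 4.17) and Ncf1 (7.24 ± 0.490), and Cyba and Nox4 differed by less than the SD of Cyba. The ratio of Nox4 to Cybb per kb was 2.98, 2.22 and 1.08 in the control libraries and 6.80, 8.36 and 3.25 in the knockout libraries. It was higher in every knockout library, by 1.57 on the log2 scale (exact two-sided permutation p = 0.1, the smallest that 3 against 3 libraries allow, for a ratio chosen after its values were seen). The spacing of these levels depended on the length used. Per kb of the union of all annotated exons, Nox4 (34.5 ± 8.49) and Cybb (33.2 ± 9.10) differed by less than their SDs in the control arches, and their ratio was 0.583 in S594. On the same length Cyba stood at 90.9 ± 26.7 and Nox4 at 51.3 ± 1.87 in the knockout arches, a gap larger than either SD, and the order of Ncf1 (5.69 ± 0.386) and Ncf4 (5.35 ± 3.03) turned, within the SD of Ncf4.

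Facts of the libraries bear on all of these values. Between 5904504 and 10072495 reads per library fell on the listed genes. Rbpj itself stood at 189 ± 13.2 and 193 ± 21.7, which does not check a deletion limited to endothelium. Defining markers of the arterial wall were present, with the smooth muscle myosin gene Myh11 at 3259 to 8318 and Cdh5 at 108.7 to 198.3. Summed T cell and thymocyte markers (8 of 8 listed) ran from 27.6 to 36.4 in the controls and were 23.6 in S595, 178.9 in S598 and 81.8 in S599. Among them Dntt stood at 1.33 ± 0.42 in the controls and read 1.29, 23.5 and 7.16 in those knockouts (limma adjusted p = 0.248). Lck stood at 2.96 ± 0.30 in the controls and read 2.66, 29.1 and 7.16 in the knockouts (limma adjusted p = 0.327). Rac2, which T cells also express, was lowest in S598, where those markers were highest. Set against the mean log2 level of macrophage markers in the same library, Rac2 was instead highest in S598 (−1.42), followed by S595 (−1.62). Whether T cells contribute to the Rac2 values was not tested. Without S598 and S599, S595 against the controls gave log2 fold changes of −1.20 for Cybb, −0.78 for Cyba, −1.09 for Ncf1, −1.35 for Ncf4, −0.78 for Rac2 and 0.605 for Nox4. In such whole-tissue RNA, fewer cells of a type and less RNA per cell cannot be told apart.

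Macrophage markers stood lower together with the phagocyte subunits. Of 14 listed, 13 had a negative log2 fold change and 10 were lower without overlap, with a median of −1.01, and limma and edgeR called 0 (13 lower at an unadjusted p of 0.05) where DESeq2 called 9 lower. Over all genes, 14.2% were lower without overlap, 12.0% were lower at that unadjusted p and DESeq2 called 4.29% lower. Their summed level ran from 6621 to 10760 in the controls and from 2841 to 6779 in the knockouts, and none was near 0. The complement gene C1qa stood at 327 ± 74.0 and 162 ± 29.8 (adjusted p = 0.107), and C1qc at 370 ± 54.2 and 192 ± 54.8 (adjusted p = 0.110). Pan-leukocyte markers were lower without overlap for 6 of 7, with a median of −1.11 and a summed level of 927.7 to 1500 against 439 to 797.5. The actin regulator Coro1a stood at 94.1 ± 21.4 and 47.0 ± 2.06 (adjusted p = 0.107), the surface antigen gene Cd52 at 35.4 ± 13.0 and 15.2 ± 1.81 (adjusted p = 0.111), and Spi1, the gene of PU.1, at 51.0 ± 17.5 and 21.8 ± 6.14 (adjusted p = 0.121).

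Neutrophils also use this oxidase. Of 11 neutrophil markers, 5 were analysed and 6 (Ly6g, Mpo, Elane, Retnlg, Ngp and Camp) were not found by symbol among the genes listed. The summed level of the 5 was 36.2, 39.8 and 105.0 in control S591, S592 and S594. It was 20.5, 26.0 and 34.5 in knockout S595, S598 and S599. Without overlap, 3 were lower (14.2% of all genes) and 1 was higher (11.3% of all genes). The chemokine receptor gene Cxcr2 stood at 4.38 ± 2.76 and 0.988 ± 0.773 (adjusted p = 0.143). Ltf, whose lactoferrin is also made by secretory epithelium, stood at 0.241 ± 0.176 and 3.76 ± 1.48 (adjusted p = 0.107). It was the higher gene and lay below 1 CPM in every control. Every listed gene reached at least 1 CPM in 3 libraries, which Ltf did only through the knockouts. Its lack of overlap therefore follows from that filter and is no separate result. Of B cell markers, Cd79a and Cd79b were analysed (2 of 5) and read at most 2.56.

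**Figure D3:**
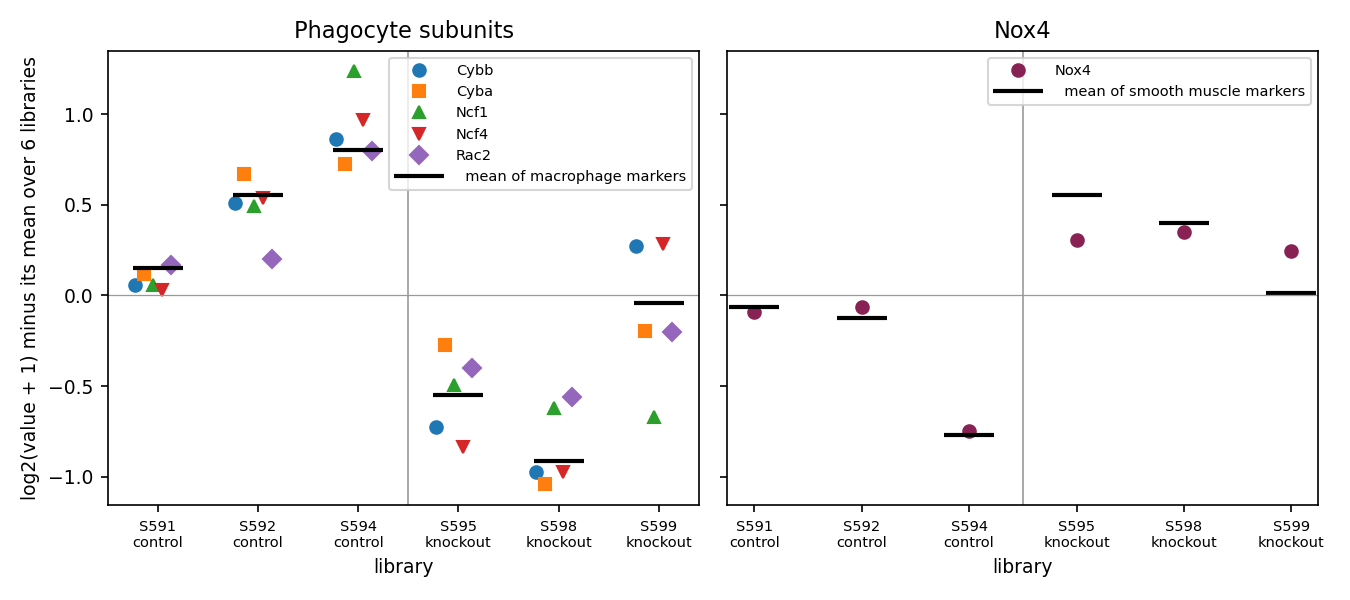
Log2(value + 1) minus its own mean over the 6 libraries (vertical axis) by library (horizontal axis), for the phagocyte subunits and for Nox4, where black bars give the mean of 14 macrophage or 7 smooth muscle markers. Single subunits stand off the macrophage bars in both groups: in S594 Ncf1 is at 1.24 with the bar at 0.80, and in S599 Cybb and Ncf4 are at 0.27 and 0.28 and Ncf1 at −0.67 with the bar at −0.04.

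Each member was then set against the mean log2 level of the 14 macrophage markers in the same library. Cybb minus that mean was −0.25, −0.20 and −0.09 in the controls and −0.33, −0.22 and 0.16 in the knockouts. The groups overlapped and the difference was 0.05, against −0.95 for Cybb alone. The same difference was −0.01 for Cyba, −0.19 for Ncf1, −0.02 for Ncf4 and 0.23 for Rac2, with exact two-sided permutation p from 0.4 to 1.0 for the 5 phagocyte subunits (Benjamini-Hochberg adjusted p = 1.0 for each of these 5, over 6 members). With 3 against 3 libraries this test cannot go below 0.1, so it cannot show that the subunits and the markers changed alike. Ncf1 was the least even: it stood at −2.83 in S599 against −2.29 to −1.76 in the other 5 libraries.

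Nox4 minus the macrophage mean was higher in all 3 knockout libraries, by 1.61 (exact permutation p = 0.1, adjusted p = 0.6). The log2 fold change was positive for all 7 smooth muscle markers, and its median was 0.63 (limma and edgeR called 0, DESeq2 called 3 higher, and 3 were higher at an unadjusted p of 0.05). Over all genes, DESeq2 called 2.01% higher and 8.04% were higher at that unadjusted p. Their summed level was 11950 to 20770 in the controls and 20870 to 29040 in the knockouts. Among them Lmod1, a regulator of actin filaments, stood at 416 ± 118 and 647 ± 58.6 (adjusted p = 0.147), and Smtn at 826 ± 183 and 1267 ± 190 (adjusted p = 0.160). Set against the mean of these markers, a comparison added after the data were seen, Nox4 stood at −1.87, −1.78 and −1.82 in the controls and at −2.09, −1.89 and −1.61 in the knockouts. The difference was −0.04 (exact two-sided permutation p = 0.7), against 0.60 for Nox4 alone, and the groups overlapped. With 3 against 3 libraries this test cannot show that Nox4 and these markers changed alike.

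**Figure D4:**
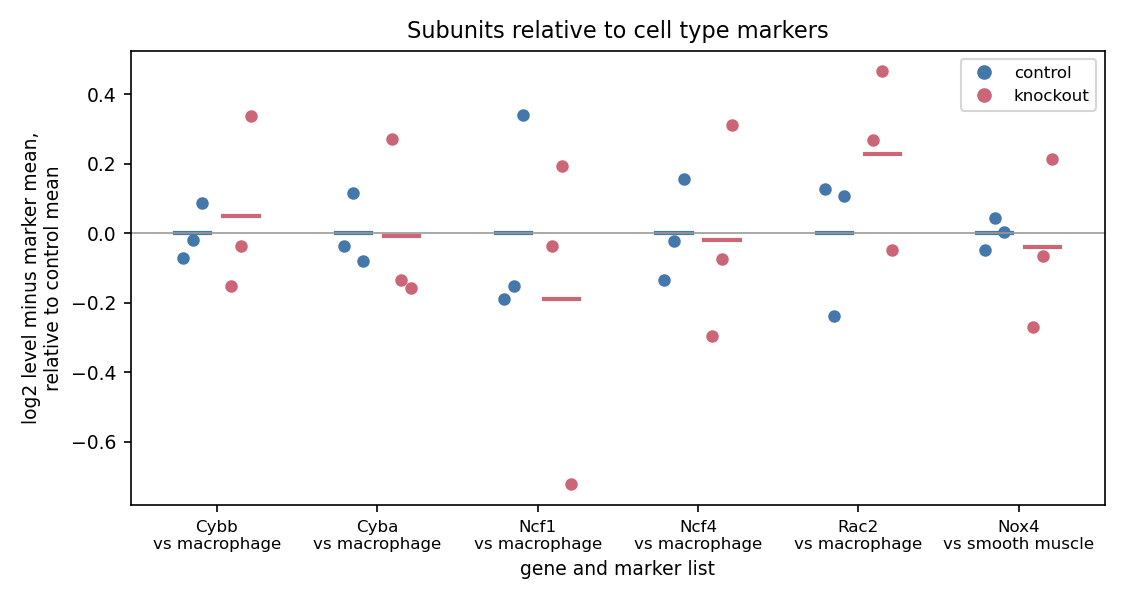
Log2 level of each member minus the mean log2 level of macrophage markers, or of smooth muscle markers for Nox4 (vertical axis, shifted so that the control mean is 0), with 1 point per library and lines at group means (n = 3). The groups overlap for all 6 members, and the lowest point is Ncf1 in S599.

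Endothelial markers lay on both sides of 0, with 0 called by limma (0 at an unadjusted p of 0.05), DESeq2 or edgeR. Of 8 listed, 4 lay on the lower and 4 on the higher side (median log2 fold change −0.01), and all 8 overlapped between the groups. The clotting factor carrier gene Vwf stood at 327 ± 38.5 and 257 ± 70.9 (adjusted p = 0.345), and the receptor gene Tie1 at 87.6 ± 11.9 and 69.8 ± 17.8 (adjusted p = 0.351). Fibroblast markers (5 of 5 listed) had a median of −0.33, with Col1a1 at 2937 ± 1168 and 1538 ± 470 (adjusted p = 0.216) and Dcn at 2208 ± 337 and 1727 ± 209 (adjusted p = 0.372).

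The genes nearest to Cybb and Nox4 in their profile over the 6 libraries were ranked by the root-mean-square difference of centred log2 levels, among 11717 genes with a mean of at least 5 CPM. Ncf4 lay at 0.0635 from Cybb, nearer than any gene outside the members. After it came Cd38 (0.0813), which encodes an enzyme that consumes NAD, the macrophage lysozyme gene Lyz2 (0.0849), Naip6 (0.0943), Nckap1l (0.0955), whose product serves actin assembly in blood cells, and Gngt2 (0.109). Cyba lay at 0.282, Rac2 at 0.321 and Ncf1 at 0.447. For Nox4 the nearest were Mef2c (0.0272), a muscle transcription factor gene, Cald1 (0.05), the gene of the actin-binding protein caldesmon, Col4a6 (0.0593), Cpe (0.0609) and Mrvi1 (0.0628), a target of nitric oxide signalling in smooth muscle. Their log2 fold changes ran from 0.55 to 0.67. Values near that of Nox4 follow from the choice, since profiles were matched over the libraries of both groups. Likeness over 6 libraries describes these libraries, in which group, depth and tissue makeup are shared by all genes.

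Listed regulators of NADPH oxidases, not confined to the phagocyte enzyme, mostly stood lower. All 16 on the list were analysed, and limma and edgeR called 0 and DESeq2 7, while 12 were lower at an unadjusted p of 0.05 and 12 without overlap, with a median log2 fold change of −0.65. The shares of all genes on the lower side were 4.29% by DESeq2, 12.0% at that unadjusted p and 14.2% without overlap. Dock2, an exchange factor that loads Rac proteins in leukocytes, read 71.5, 84.7 and 107.1 in the controls and 41.8, 30.9 and 50.7 in the knockouts (log2 fold change −1.08, adjusted p = 0.107). The exchange factor gene Vav1 stood at 60.6 ± 17.1 and 24.8 ± 7.90 (−1.26, adjusted p = 0.110), and Pik3cd, a leukocyte lipid kinase gene, at 63.9 ± 21.6 and 29.7 ± 4.05 (−1.04, adjusted p = 0.111).

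Enzymes that remove superoxide and peroxide stood lower by less. All 8 were analysed and lay on the lower side, as did 7470 of all 14298 genes. The log2 fold changes of the 8 ran from −0.59 to −0.03 (median −0.26), and 3 were lower without overlap. Limma and edgeR called 0 of them and DESeq2 2, with 3 lower at an unadjusted p of 0.05. Of all genes, 14.2% were lower without overlap, 4.29% by DESeq2 and 12.0% at that unadjusted p. Prdx1, a peroxiredoxin gene, read 506.3, 635.4 and 606.8 in the controls and 412.8, 352.0 and 394.7 in the knockouts (log2 fold change −0.59, adjusted p = 0.112). The glutathione peroxidase gene Gpx1 stood at 407 ± 51.8 and 284 ± 40.1 (−0.52, adjusted p = 0.129). The mitochondrial superoxide dismutase gene Sod2 stood at 132 ± 39.97 and 88.7 ± 13.5, with overlap (−0.54, adjusted p = 0.237). Whether the macrophage and smooth muscle markers account for any of the differences above was not tested.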

How the data were processed

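PolyA RNA from 3 control and 3 knockout aortic arches (RNA integrity number at least 7.9) was sequenced from TruSeq libraries, per the labels' protocols. Tools named in the submitters' processing notes, with no roles, are RSEM 1.16, Bowtie 0.12.7, cutadapt 1.6.1, CASAVA 1.8, edgeR and limma, and the build is NCBIM37. The authors deposited a linear normalised signal per gene and library. Checked on the values, it equals reads plus 0.5, in CPM of a TMM-scaled library size, to within a relative 1.01e-09, and 100% gave whole reads at a tolerance of 0.01. Column headings give the genotype group and a library number that fits no sample label. The series' design text gives 3 mice per genotype and does not say whether a library pools arches.

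Values were compared across all genes with limma 3.58.1 (R 4.3.3, intensity trend) on log2(value + 1), two-sided, with Benjamini-Hochberg adjustment over 14298 genes and a threshold of 0.05. A filter of at least 1 CPM in 3 libraries removed 0 genes. Symbols were matched for 13828 identifiers. Alternatives included edgeR 4.0.16 and DESeq2 1.42.0 on recovered reads. The limma comparison was tested on simulated counts with the same scatter for every gene and no differences in tissue makeup between libraries. That simulation therefore does not show how the test behaves on these libraries. The members, lists and tests were chosen with earlier results of these data known.

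Genes named were the members, every analysed gene among the 11 other oxidase genes (1 further gene of the list, left out of its counts, is not reported here), the 3 regulators and 3 peroxide enzymes with the smallest p, 2 markers per list with Spi1 and Cdh5, Rbpj, and the 5 nearest profiles of Cybb and Nox4. Myh11, Cd79a and Cd79b, the overlapping genes and the unlisted markers were added after the values were seen. Read numbers limit precision through counting error only. Coordinates are given only for RefSeq promoter windows.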

Additional observations from a re-analysis of the deposited data

How the results depend on the processing

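The log2 fold changes of the 6 members kept their sign under all 14 alternatives tried for each, and Cybb and Ncf4 were called under none. DESeq2 called Cyba (−0.99), Ncf1 (−1.31), Rac2 (−0.81) and Nox4 (0.59). With 1 library left out, Cyba ran from −1.20 to −0.74 and Ncf1 from −1.46 to −0.87, both called without S591 alone. The number of genes passing over all genes, 3 by limma, was 900 by DESeq2 (613 lower, 287 higher), 0 by edgeR, limma-voom, a mean of at least 5, a pseudocount of 0.5, or without S598 and S599, 1 without an intensity trend, 2860 at an unadjusted p of 0.05 (added after seeing the data), and from 0 to 671 (without S591) with 1 library left out. Relative to macrophage markers, S595 as the 1 knockout library gave −0.15 for Cybb, 0.27 for Cyba and −0.30 for Ncf4. Over all 6 libraries, Nox4 relative to smooth muscle markers in place of macrophage markers gave −0.041 (added after seeing the data). The cause was not tested. The fit without S598 and S599 assumes that S595 varies like the controls. The count of other oxidase genes without overlap, 0 of 4, was the same after quantile normalisation. No paired analysis was possible because the columns carry library numbers that match no replicate number in the labels. Between 50 and 236 reads per library limit Ncf4.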
